A study of Rattus with 6 samples.

Results

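The nidogens, laminin chains and perlecan form the non-collagenous core of the basement membrane, the thin sheet of extracellular matrix that underlies epithelia and endothelia and surrounds muscle cells. A laminin is a trimer of an alpha, a beta and a gamma chain. Laminins assemble into a network on the cell surface, nidogens link that network to the type IV collagen network, and perlecan, a large heparan sulfate proteoglycan, binds both and holds growth factors. In the heart, cardiac fibroblasts are among the cells that make these components, and the laminins reach the cardiomyocyte through dystroglycan and integrins.

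The genes described were the 9 whose symbol in the deposited count table is Nid1, Nid2, Lama2, Lama4, Lama5, Lamb1, Lamb2, Lamc1 or Hspg2, out of 21378 genes in that table. Their rows were found by symbol, but the genes were chosen with earlier results of these data known. All 9 had counts in every library and all 9 passed the filter on low counts.

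RNA was sequenced from cultured rat cardiac fibroblasts, bought from a supplier and labelled a cell line. The siNONO group (3 libraries) received an siRNA against Nono, a paraspeckle protein that binds nucleic acids in the nucleus, by lipofection. The siCtrl group (3 libraries) is titled as siRNA control but is also labelled as given empty vector, and the labels do not resolve which it was. Strain, sex, age and passage of the cells are not given, nor is it given whether the libraries of a group came from separate cultures, so each p-value reflects library-to-library spread alone, which may be technical. A harvest 48 h after transfection is given for RT-qPCR and western blotting and not separately for sequencing. The comparison asks how these transcripts differ when Nono is knocked down.

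Libraries held between 27792357 and 33365588 counts. Nono itself was at 69.9, 76.1 and 73.6 CPM (counts relative to library size, scaled by TMM) in siNONO replicates 1, 2 and 3, against 237, 233 and 247 CPM in siCtrl, so the targeted mRNA was lower in each siNONO library. Fibroblast genes were abundant: the 8 fibroblast markers summed to between 24110 and 24716 CPM in siNONO and between 24714 and 26535 CPM in siCtrl, with 1 of them raised (Ddr2) and 3 lowered, among them Lum and Dcn. Most of that sum was Col1a1 (14760 CPM in siNONO and 15858.5 CPM in siCtrl) and Col1a2 (7296 and 7019 CPM). Other fibroblast markers were far lower, such as Pdgfra (651 and 623 CPM) and Tcf21 (73.1 and 85.2 CPM). The marker lists of other makers of basement membrane summed to far less, though not every marker in them was low. Kcnj8, of pericytes and vascular smooth muscle, was at 34.4 CPM in siNONO and 41.8 CPM in siCtrl. Wt1, of the mesothelial and epithelial list, was at 54.8 CPM in siNONO and 50.1 CPM in siCtrl. The fibroblast marker Lum was at 18.9 CPM in siNONO and 35.6 CPM in siCtrl. The 8 endothelial markers summed to between 20.1 and 21.2 CPM in siNONO and between 17.6 and 19.0 CPM in siCtrl, with 1 of 6 tested raised (Tek) and Emcn at no more than 3 counts in any library. The 8 pericyte and vascular smooth muscle markers summed to between 75.2 and 80.1 CPM in siNONO and between 85.1 and 95.2 CPM in siCtrl, with 1 of 7 raised (Des), 3 lowered, the 2 largest falls in Myh11 and Cspg4, and Rgs5 at no more than 3 counts. The 4 Schwann cell markers in the table summed to between 2.30 and 3.01 CPM in siNONO and between 2.46 and 3.41 CPM in siCtrl, with S100b, the tested marker with the lowest p, not called. The 8 mesothelial and epithelial markers summed to between 82.9 and 85.3 CPM in siNONO and between 69.8 and 74.2 CPM in siCtrl, with Msln and Wt1 raised of 4 tested and Krt19 at no more than 3 counts. The 6 cardiomyocyte markers in the table summed to between 107 and 116 CPM in siNONO and between 143 and 159 CPM in siCtrl, nearly all of it Tnnt2, which was lowered, while Actc1, Ryr2 and Ttn had no more than 3 counts in any library. The 6 macrophage and leukocyte markers summed to between 261 and 274 CPM in siNONO and between 271 and 306 CPM in siCtrl, with Csf1r and Adgre1 lowered and the other 4 not called. Some of these marker calls ended in edgeR fits that left out 1 library: Tek without any library but siCtrl replicate 2 (adjusted p from 0.0512 to 0.1003), Wt1 without any (0.0502 to 0.147), Ddr2 without siCtrl replicate 3 (0.0849), siNONO replicate 1 (0.0771) or siNONO replicate 3 (0.119), and Des without siNONO replicate 1 (0.0510) or siNONO replicate 2 (0.0588). The part of these marker levels in the results that follow was not tested.

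Of the 9 genes, 5 were lowered and 2 raised in siNONO by edgeR's quasi-likelihood test (Benjamini-Hochberg adjusted over all 14412 genes tested, threshold 0.05). That is 77.8% of them called, where 32.1% of all genes tested were called, 16.2% raised and 15.9% lowered. By mean FPKM each of the 9 lay above at least 68.7% of the genes tested. The shares called were not compared at like expression levels. The siNONO and siCtrl values did not overlap for 7 of the 9, the same 7, where 45.0% of all genes tested did not overlap. Nid1 was the member with the large difference, at less than 50% of its control level. The median log2 fold change of the 9 genes was -0.13, against 0.00 over all genes tested, and the median of its absolute size was 0.18, against 0.15 over all genes tested. These libraries are bulk samples, in which fewer cells of a type and less RNA per cell cannot be told apart.

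**Figure D1:**
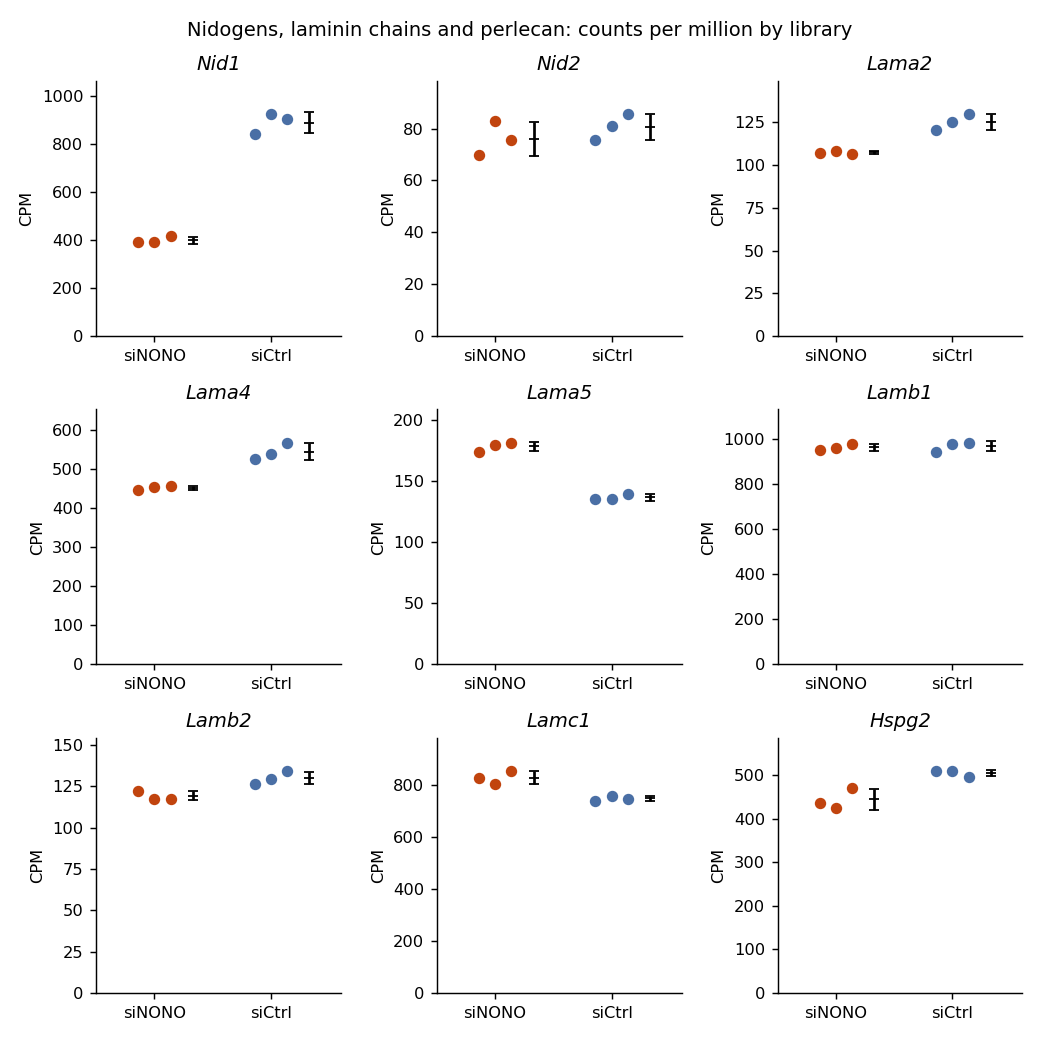
TMM-scaled CPM (vertical axis, from 0) of the 9 genes, with siNONO libraries at the left and siCtrl libraries at the right of each panel; points are libraries in the order of replicates 1, 2 and 3, and the bar beside them is the mean with the SD (n = 3). Nid1 lies between 390.4 and 415 CPM in siNONO and between 842 and 924 CPM in siCtrl, while the points of Nid2 and Lamb1 overlap.

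Nid1 (gene-Nid1, chromosome 17) encodes nidogen-1, also called entactin, which binds the laminin gamma1 chain and type IV collagen. It was at 390.4, 390.4 and 415 CPM in siNONO replicates 1, 2 and 3 and at 842, 924 and 902 CPM in siCtrl replicates 1, 2 and 3. All siNONO libraries were low and close to each other, and the groups were far apart. The means were 398 ± 13.9 CPM in siNONO and 889 ± 42.4 CPM in siCtrl (SD, n = 3 each). The log2 fold change was -1.16 ± 0.05 (SE; edgeR adjusted p = 1.27e-09), so siNONO held 44.8% of the control level, and the 95% interval of the log2 fold change ran from -1.26 to -1.06. By absolute log2 fold change Nid1 was at rank 168 of the 14412 genes tested. The call held in each of the 20 alternatives tried, with log2 fold changes from -1.20 to -1.10.

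Nid2 (gene-Nid2, chromosome 15), the paralog that binds many of the same partners, was not called. Its level was 69.6, 82.7 and 75.4 CPM in siNONO replicates 1, 2 and 3 and 75.5, 81.1 and 85.5 CPM in siCtrl replicates 1, 2 and 3, so siNONO replicate 2 lay inside the control range. The log2 fold change was -0.09 ± 0.06 (SE; edgeR adjusted p = 0.304), with a 95% interval from -0.22 to 0.05, that is from 14.2% lower to 3.18% higher. The interval does not reach the difference seen in Nid1. The value depended on single libraries: it was -0.03 without siNONO replicate 1 (adjusted p = 0.763), -0.04 without siCtrl replicate 3 (0.677), -0.13 without siCtrl replicate 1 (0.111) and -0.16 without siNONO replicate 2 (0.0658), and -0.04 with scaling by library total (0.678).

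The paralogs differed from each other. Per length, on the FPKM scale that the authors deposited, Nid1 exceeded Nid2 by 4.47, 3.76 and 4.38 times in siNONO replicates 1, 2 and 3 and by 8.89, 9.09 and 8.42 times in siCtrl replicates 1, 2 and 3. The mean log2 ratio of Nid1 to Nid2 was 2.07 ± 0.14 in siNONO and 3.14 ± 0.06 in siCtrl (SD, n = 3 each), a difference of -1.07 with no overlap (exact permutation test, two-sided, p = 0.1, and 0.1 after adjustment over the 2 ratios tested). With 3 libraries a group this test cannot give a smaller p. A ratio within a library does not depend on how libraries are scaled. Nid2 made up 18.3%, 21.0% and 18.6% of the summed nidogen FPKM in siNONO and 10.1%, 9.91% and 10.6% in siCtrl. The summed level of both nidogens was 76.5 ± 2.43 FPKM in siNONO and 148 ± 9.10 FPKM in siCtrl (exact two-sided permutation p = 0.1; 0.133 adjusted over 4 class sums), so total nidogen mRNA in siNONO stood at 51.6% of the control level.

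**Figure D2:**
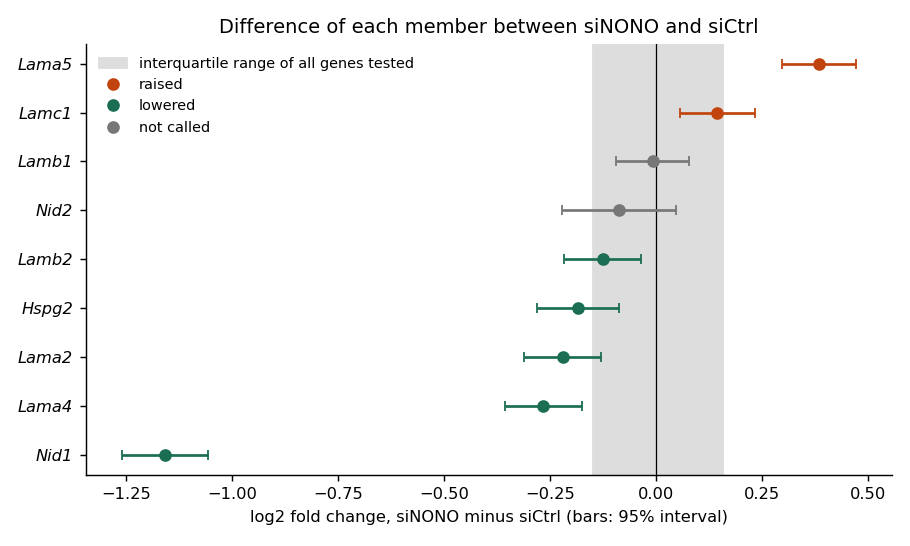
Log2 fold change, siNONO minus siCtrl (horizontal axis), of each of the 9 genes with its 95% interval from edgeR's quasi-likelihood fit; colours mark the call and the grey band is the interquartile range over all genes tested. Nid1 at -1.16 stands apart, Lama5 at 0.38 is the largest rise, and the intervals of Nid2 and Lamb1 include 0.

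Among the laminin alpha chains, which carry the cell-binding end of the trimer, Lama2 and Lama4 fell and Lama5 rose. Lama4 (gene-Lama4, chromosome 20), the alpha chain of vascular and mesenchymal basement membranes, was at 447, 456 and 457 CPM in siNONO replicates 1, 2 and 3 and at 526, 540.5 and 568 CPM in siCtrl replicates 1, 2 and 3. Every siNONO library was below every control, and the log2 fold change, with its SE, was -0.27 ± 0.04 (adjusted p = 0.000263 by edgeR), a level 16.9% lower. Lama2 (gene-Lama2, chromosome 1), the alpha chain of the muscle laminin merosin, whose loss causes a congenital muscular dystrophy in humans, was at 107, 109 and 107 CPM in siNONO and at 121, 125 and 129.8 CPM in siCtrl. The siNONO libraries were nearly alike and below all controls, at -0.22 ± 0.04 on the log2 scale (SE; adjusted p = 0.00114 by edgeR). Both calls held in each of the 20 alternatives.

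Lama5 (gene-Lama5, chromosome 3), the alpha chain found widely in mature epithelial and endothelial basement membranes, moved the other way. It was at 174, 179.6 and 181 CPM in siNONO replicates 1, 2 and 3 and at 135, 135 and 139 CPM in siCtrl replicates 1, 2 and 3, so the lowest siNONO library was above the highest control. The log2 fold change was 0.38 ± 0.04 (SE; edgeR adjusted p = 7.85e-06), a level 30.5% higher with a 95% interval from 22.9% to 38.5% higher. The call held in each of the 20 alternatives, with log2 fold changes from 0.35 to 0.43.

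The makeup of the alpha class differed between the groups. By FPKM, Lama5 made up 15.3%, 15.5% and 15.6% of all alpha chain mRNA in siNONO replicates 1, 2 and 3 and 10.7%, 10.4% and 10.3% in siCtrl replicates 1, 2 and 3. Lama4 remained the main alpha chain in every library, at 73.5% ± 0.0518 in siNONO and 78.2% ± 0.223 in siCtrl (SD, n = 3 each). Lama2 was at 10.9% ± 0.158 in siNONO and 11.2% ± 0.0715 in siCtrl. For all 3 the groups did not overlap, and each had p = 0.1 in the exact permutation test, its lower limit here (0.117 adjusted over 7 shares tested). Lama1 held only 0.0354% in siNONO and 0.0717% in siCtrl, and Lama3 0.0319% and 0.0422%. The 3 shares thus make up nearly the whole class and are not separate results. Lama4 and Lama2 kept nearly the same ratio to each other, with a mean log2 ratio of 2.75 ± 0.02 in siNONO and 2.80 ± 0.01 in siCtrl. That difference of -0.05 was small but without overlap (exact two-sided permutation p = 0.1; 0.1 adjusted over the 2 ratios).

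**Figure D3:**
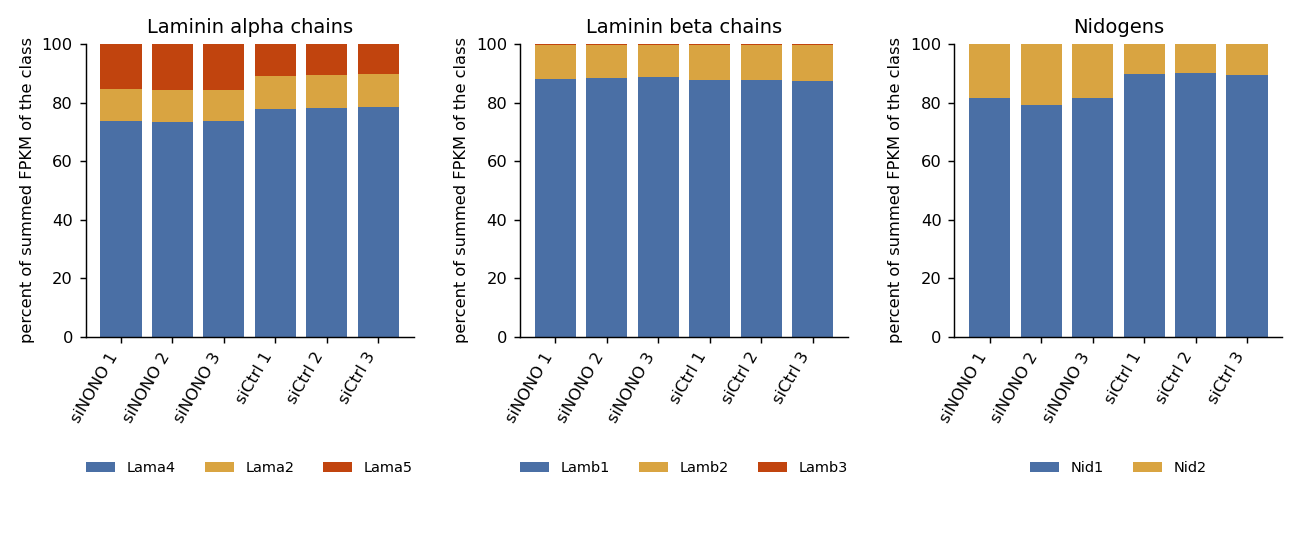
Share of each chain in the summed FPKM of its class (vertical axis, percent) in each library, siNONO at the left and siCtrl at the right, for laminin alpha chains, laminin beta chains and nidogens; alpha chains under 0.1% are not drawn. Lama5 takes between 15.3% and 15.6% of alpha chain mRNA in siNONO and between 10.3% and 10.7% in siCtrl, and Nid2 takes between 18.3% and 21.0% of nidogen mRNA in siNONO and between 9.91% and 10.6% in siCtrl.

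Differences in the beta chains were small. Lamb1 (gene-Lamb1, chromosome 6), the beta chain of most laminins, was at 951, 959.7 and 981 CPM in siNONO replicates 1, 2 and 3 and at 945, 978 and 985 CPM in siCtrl replicates 1, 2 and 3. The groups covered nearly the same range, and the log2 fold change, with its SE, was -0.01 ± 0.04 (adjusted p = 0.899 by edgeR) and a 95% interval from 6.35% lower to 5.55% higher; its sign was positive with scaling by library total (0.04). Lamb2 (gene-Lamb2, chromosome 8), the beta chain concentrated at neuromuscular synapses, in the kidney glomerulus and in vessels, was at 122, 118 and 118 CPM in siNONO and at 127, 129.6 and 134 CPM in siCtrl. All siNONO libraries were below all controls by a small margin, and the log2 fold change, with its SE, was -0.13 ± 0.04 (adjusted p = 0.0322 by edgeR). That call was weak: it ended without siCtrl replicate 2 (adjusted p = 0.0627), siCtrl replicate 3 (0.119), siNONO replicate 1 (0.0560), siNONO replicate 2 (0.0809) or siNONO replicate 3 (0.107), and with scaling by library total (0.206). Lamb1 made up 88.3% ± 0.302 of beta chain FPKM in siNONO and 87.5% ± 0.136 in siCtrl. Lamb2 made up 11.3% ± 0.372 in siNONO and 12.2% ± 0.155 in siCtrl (exact two-sided permutation p = 0.1 for each, 0.117 adjusted). Lamb3 held only 0.340% in siNONO and 0.255% in siCtrl, so these 2 shares are near complements and not separate results.

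Lamc1 (gene-Lamc1, chromosome 13), the gamma chain of most laminins and the chain to which nidogen binds, was slightly higher in siNONO. Its level was 826, 804 and 854 CPM in siNONO replicates 1, 2 and 3 and 739, 760.1 and 749 CPM in siCtrl replicates 1, 2 and 3. The groups did not overlap, and the log2 fold change, with its SE, was 0.14 ± 0.04 (adjusted p = 0.0152 by edgeR), a level 10.5% higher. The call ended without siNONO replicate 1 (adjusted p = 0.0663) and without siNONO replicate 3 (0.0905), with the log2 fold change still above 0. Lamc1 was nearly the whole gamma class, at 98.9% ± 0.0761 of its FPKM in siNONO and 99.0% ± 0.0753 in siCtrl, and this share overlapped between the groups (exact two-sided permutation p = 0.2; 0.2 adjusted).

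Summed by class, alpha chain mRNA was 94.0 ± 1.02 FPKM in siNONO and 103 ± 4.70 FPKM in siCtrl. Beta chain mRNA was 172 ± 2.68 FPKM in siNONO and 169 ± 6.02 FPKM in siCtrl, and gamma chain mRNA was 101 ± 3.54 FPKM in siNONO and 88.4 ± 2.54 FPKM in siCtrl (SD, n = 3 each). The alpha sum was lower and the gamma sum higher in siNONO without overlap (exact two-sided permutation p = 0.1 for each; 0.133 adjusted over 4 sums), and the beta sums overlapped (p = 0.6; 0.6 adjusted). Gamma chain mRNA was thus above alpha chain mRNA in each siNONO library and below it in each siCtrl library. FPKM is scaled to the library total, under which the median log2 fold change of all genes tested was 0.05, so class sums stand slightly higher in siNONO than they would on the TMM scale.

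Hspg2 (gene-Hspg2, chromosome 5) encodes perlecan, whose long core protein carries heparan sulfate chains. It was at 436, 425 and 471 CPM in siNONO replicates 1, 2 and 3 and at 509, 508 and 496 CPM in siCtrl replicates 1, 2 and 3. All siNONO libraries were below all controls, and siNONO replicate 3 was nearest to them. The means were 444 ± 23.9 CPM in siNONO and 504.5 ± 7.26 CPM in siCtrl (SD, n = 3 each), and the fitted log2 difference was -0.18 ± 0.04 (SE; adjusted p = 0.00645 by edgeR). With limma on log2(FPKM + 1) the call ended (-0.13; adjusted p = 0.0554); with scaling by library total it held.

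Ordered by FPKM, which allows levels of different genes to be compared per length, siNONO libraries ran Lamb1, Lamc1, Lama4, Nid1, Hspg2, Lamb2, Nid2, Lama5 and Lama2, with means from 152 FPKM to 10.3 FPKM. In siCtrl the order was Lamb1, Nid1, Lamc1, Lama4, Hspg2, Lamb2, Nid2, Lama2 and Lama5, with means from 148 FPKM to 10.8 FPKM. Nid1 was thus at position 4 in siNONO, at 61.7 ± 2.35 FPKM, and at position 2 in siCtrl, at 133 ± 8.17 FPKM. Lama5 was above Lama2 in siNONO (14.5 ± 0.30 FPKM and 10.3 ± 0.0404 FPKM), while in siCtrl the 2 overlapped (10.8 ± 0.285 FPKM and 11.6 ± 0.537 FPKM). The only other neighbours that overlapped were Nid2 and Lama5 in siNONO. Together the 9 genes took 0.363% ± 0.0101 of all counts in siNONO and 0.406% ± 0.0150 in siCtrl (exact two-sided permutation p = 0.1). That sum includes Nid1, at 398 CPM in siNONO and 889 CPM in siCtrl. The share without Nid1 was not computed, so the difference does not show a fall shared by the 9 genes. Among controls, replicate 1 was the lowest for 8 of the 9 genes, and among siNONO libraries replicate 3 was the highest for 6 of the 9. The same was not counted over all genes tested, so it cannot be told from a general trait of these libraries.

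By the root mean square difference of centred log2 CPM over the 6 libraries, among 10086 named genes with a mean of at least 5 CPM, the patterns most like that of Nid1 were those of Gja1 (0.0453), Rgs2 (0.0522) and Upk1b (0.0596). Gja1, the gap junction protein connexin 43, had a log2 fold change of -1.22, the G protein regulator Rgs2 -1.12 and the tetraspanin-family gene Upk1b -1.14. The patterns most like that of Lama5 were those of Mtmr1 (0.0144), a phosphoinositide phosphatase, Nfib (0.0164), a transcription factor, and Ciao2b (0.0231), of iron-sulfur protein assembly. The log2 fold changes of these genes were 0.41, 0.39 and 0.36. With 6 libraries in 2 groups this measure mainly finds genes with a like difference between the groups.

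The other laminin chains were low. Of 5, 4 were tested, 1 was raised and 2 lowered (3 of 4 called, against 32.1% of all genes tested; median log2 fold change -0.25, against 0.00 over all genes tested), and Lamc3 had no more than 3 counts in any library. The call of the raised chain ended without siCtrl replicate 1 or 3 and without siNONO replicate 2 or 3, and the lowered count was 1 without siCtrl replicate 2 or any siNONO library. Lama1, an early embryonic chain, was at 0.356 ± 0.0572 CPM in siNONO and 0.809 ± 0.166 CPM in siCtrl (edgeR adjusted p = 0.00946). Lama3, an epithelial chain, was lowered as well, at -0.83 ± 0.25 on the log2 scale (adjusted p = 0.0209 by edgeR), a call that ended without siCtrl replicate 2 (adjusted p = 0.0839), siNONO replicate 1 (0.0566), siNONO replicate 2 (0.0530) or siNONO replicate 3 (0.0655).

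Other basement membrane proteins were more often lowered than raised. Of 25 partners listed, 22 were tested, of which 11 were lowered and 3 raised (63.6% called, against 32.1% of all genes tested), with a median log2 fold change of -0.28. Hmcn1, the giant matrix protein hemicentin-1, fell most, at 1.09 ± 0.0166 CPM in siNONO and 3.09 ± 0.259 CPM in siCtrl (-1.49 ± 0.17; edgeR adjusted p = 1.64e-05). Fras1, part of an epithelial anchoring complex, had -0.85 ± 0.22 (edgeR adjusted p = 0.0102; 0.0504 without siCtrl replicate 3). Its level was low, at 1.03 ± 0.246 CPM in siNONO and 1.84 ± 0.315 CPM in siCtrl. The Fras1 call also ended with limma on log2(FPKM + 0.1) (adjusted p = 0.0914) and on log2(FPKM + 1) (-0.06; adjusted p = 0.152). The heparan sulfate proteoglycan agrin (Agrn), which binds laminin, rose to 57.6 ± 3.47 CPM in siNONO, against 46.9 ± 1.57 CPM in siCtrl (0.30 ± 0.05; edgeR adjusted p = 0.000606). Netrin-1 (Ntn1), a guidance protein with laminin-like domains, rose by 0.28 ± 0.06 on the log2 scale.

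The type IV collagen chains, to which nidogen binds, are named here after their values were seen. Of the 6 chains, 4 were lowered and 2 not called, where 15.9% of all genes tested were lowered and 32.1% called. Col4a1 was at 2306, 2238 and 2398 CPM in siNONO replicates 1, 2 and 3 and at 2883, 3165 and 3088 CPM in siCtrl replicates 1, 2 and 3, and was lower in each siNONO library (-0.40 ± 0.05; edgeR adjusted p = 2.52e-05). Col4a2, its partner in the usual trimer, had -0.34 ± 0.04 (edgeR adjusted p = 5.77e-05) and Col4a5 -0.50 ± 0.06 (edgeR adjusted p = 4.59e-05). Col4a3 was lowered too, at -0.82 ± 0.13, but its level was low, at 2.82 CPM in siNONO and 4.99 CPM in siCtrl. Col4a4 had -0.62 (edgeR adjusted p = 0.338) and Col4a6 0.10 (edgeR adjusted p = 0.745), both also at low counts. Of the other basement membrane collagens, Col18a1 rose by 0.23 ± 0.05 and Col15a1 had -0.21 ± 0.04, a lowered call. The peroxidase Pxdn, which crosslinks type IV collagen, had -0.43 ± 0.04 and Sparc, a collagen-binding protein, -0.23 ± 0.04. Both were lowered.

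Receptors for laminin and the dystrophin complex moved in both directions. Of 21 tested, 9 were lowered and 3 raised (57.1% called, against 32.1% of all genes tested; median -0.13), but with scaling by library total it was 4 lowered and 4 raised. The sarcoglycan gene Sgcb, of the complex around dystroglycan, fell to 95.6 ± 1.26 CPM in siNONO, against 125 ± 4.89 CPM in siCtrl (-0.39 ± 0.04; edgeR adjusted p = 1.15e-05). Sgcd had -0.79 ± 0.28 at about 1 CPM (edgeR adjusted p = 0.0481), a call that ended without siCtrl replicate 2 (0.0517), siCtrl replicate 3 (0.243, where the log2 fold change was -0.52), siNONO replicate 1 (0.178) or siNONO replicate 2 (0.0858). Bcam, a laminin receptor, rose to 4.62 ± 0.616 CPM in siNONO, against 2.98 ± 0.454 CPM in siCtrl (0.64 ± 0.15; edgeR adjusted p = 0.00442). The syndecan Sdc4, a cell-surface heparan sulfate proteoglycan, rose by 0.21 ± 0.05. Dystroglycan itself (Dag1), named after its values were seen, had -0.12 ± 0.04 (edgeR adjusted p = 0.0421), a call that held of the 6 fits without 1 library only without siCtrl replicate 3. Without the other libraries its adjusted p ran from 0.0529 to 0.132. Leaving out siCtrl replicate 1 gave 5 lowered receptors, and leaving out siNONO replicate 1 or replicate 2 gave 4.

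**Figure D4:**
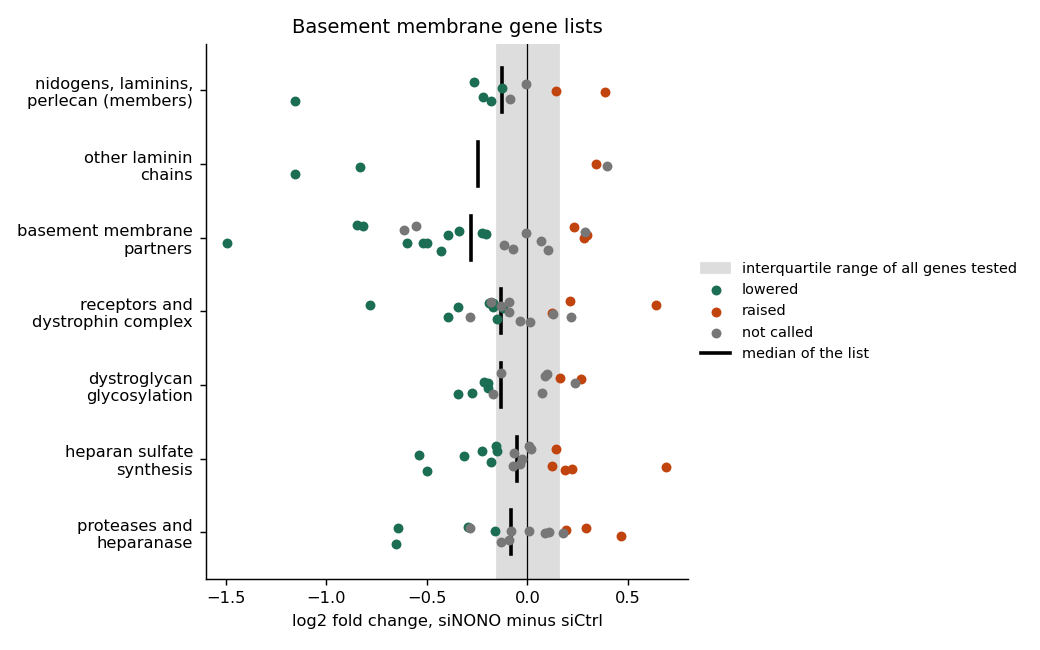
Log2 fold change, siNONO minus siCtrl (horizontal axis), of each tested gene in the 9 genes described and in 6 related lists; points are genes coloured by their call (vertical scatter within a row has no meaning), black bars are list medians and the grey band is the interquartile range over all genes tested. The medians run from -0.28 for basement membrane partners to -0.05 for heparan sulfate synthesis, and Hmcn1 at -1.49, Nid1 at -1.16 and Lama1 at -1.15 lie far to the left. Unlike Nid1, Hmcn1 (1.09 CPM in siNONO and 3.09 CPM in siCtrl) and Lama1 (0.356 and 0.809 CPM) are at low levels.

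Enzymes that build the laminin-binding sugar of dystroglycan were mixed. Of 13 tested, 5 were lowered and 2 raised (53.8% called, against 32.1% of all genes tested; median -0.13), and with scaling by library total 2 were lowered and 2 raised. B4gat1, which primes that sugar, fell to 24.7 ± 1.31 CPM in siNONO, against 31.4 ± 0.350 CPM in siCtrl (-0.34 ± 0.05; edgeR adjusted p = 0.000256). B3galnt2 had -0.28 ± 0.08, a call that ended without siCtrl replicate 3 (edgeR adjusted p = 0.0735) and without siNONO replicate 2 (0.0562). Pomgnt1 rose by 0.27 ± 0.05 (edgeR adjusted p = 0.00103) and Rxylt1 by 0.16 ± 0.05. The Rxylt1 call ended without siCtrl replicate 1 (0.0529) and without siNONO replicate 2 (0.0939). Leaving out siCtrl replicate 3 gave 2 lowered enzymes, leaving out siNONO replicate 1 or replicate 3 gave 3, and leaving out siNONO replicate 2 gave 1 raised.

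Enzymes for heparan sulfate, the sugar that perlecan carries, also moved both ways. Of 18 tested, 7 were lowered and 5 raised (66.7% called, against 32.1% of all genes tested; median -0.05), and with scaling by library total 5 and 5. Without any 1 of siCtrl replicates 1 and 3 and siNONO replicates 1 and 3, 2 were raised, and without siNONO replicate 2, 3 were. Both galactosyltransferases of the linker between core protein and sugar were called, in opposite directions. B4galt7 fell to 24.4 ± 0.560 CPM in siNONO, against 35.5 ± 0.787 CPM in siCtrl (-0.54 ± 0.05; edgeR adjusted p = 2.33e-06), and B3galt6 rose to 4.12 ± 0.412 CPM in siNONO, against 2.55 ± 0.156 CPM in siCtrl (0.69 ± 0.14; edgeR adjusted p = 0.00162). The sulfotransferase Hs3st1 had -0.50 ± 0.09 and the extracellular sulfatase Sulf2 rose by 0.22 ± 0.04.

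Proteases that cut basement membrane proteins, with heparanase, were called in 7 of 15 (46.7%, against 32.1% of all genes tested), 4 lowered and 3 raised, with a median of -0.08. With scaling by library total 3 were lowered and 5 raised, and without siCtrl replicate 2, 7 were lowered and 2 raised. The raised count was also 2 without siNONO replicate 1 and 2 without siNONO replicate 2. The plasminogen activator Plau fell to 30.0 ± 1.25 CPM in siNONO, against 46.9 ± 1.43 CPM in siCtrl (-0.65 ± 0.05; edgeR adjusted p = 5.12e-07), and the aggrecanase Adamts4 had -0.66 ± 0.08. Adamts5 rose by 0.47 ± 0.07 (edgeR adjusted p = 0.00019). Heparanase (Hpse), which cuts heparan sulfate, rose to 28.03 ± 1.13 CPM in siNONO, against 22.9 ± 1.66 CPM in siCtrl (0.29 ± 0.06; edgeR adjusted p = 0.00262).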

How the data were processed

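Per the labels' protocols, total RNA was treated with DNase and went through poly(A) capture and a stranded library kit. The build mRatBN7.2 and the tools HISAT2 and edgeR are named, per the submitters' processing notes; versions, counter, strand setting and annotation release were not given in the sources used here. The deposited table of raw read counts holds 21378 genes, and the deposited FPKM table, scaled by the authors to gene length and library size, holds 21081. Both tables name genes and chromosomes without positions. In RefSeq's gene table (GRCr8, another build, used for names only), 6 of the 9 genes overlap no other gene, and the genes overlapping Lama2, Lama4 and Lamc1 have at most 12 counts in any library here.

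Counts were fitted in R 4.3.3 with edgeR 4.0.16: filterByExpr (14412 genes left), TMM, glmQLFit and glmQLFTest with group as the only term, two-sided, Benjamini-Hochberg over all genes tested, threshold 0.05, a common biological coefficient of variation of 4.82%. SE is the log2 fold change over the square root of F, and 95% intervals use the fit's degrees of freedom. CPM is counts over TMM-scaled library size. The detection floor of 3 counts is 0.0899 to 0.108 CPM on raw library totals, before TMM scaling, and covers counting error only. Chain shares, class sums and ratios use deposited FPKM and exact permutation tests. Libraries of a group were not copies (chi-square over its degrees of freedom, 3.18 to 7.58). Same-numbered libraries did not deviate together (correlations from -0.09 to -0.01), so the numbers were not treated as pairs.

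The 9 genes, the 6 basement membrane lists and the 7 marker lists were chosen with earlier results of these data known. Of each list, up to 2 members with the largest called rise and up to 2 with the largest called fall are named, or, with none called, the member of lowest p; genes outside this rule are named after their values were seen. For the most significant member in each direction, the 3 genes of nearest pattern are named. Symbols with no matching row are not analysed here. Some genes that this rule would name are not reported here. Alternatives were other scalings (DESeq2 size factors, library totals), filters, tests (DESeq2 1.42.0, limma 3.58.1 voom and robust quasi-likelihood), a replicate block, a gene length correction, limma-trend on log2(FPKM + 0.1) or on log2(FPKM + 1), the last also with only genes of at least 1 FPKM in 3 libraries, a stricter threshold (0.01) and fits without each library in turn. Fits were tested on simulated data first. There were 0 columns of other samples. Figures were drawn with matplotlib 3.10.9.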

Additional observations from a re-analysis of the deposited data

How the results depend on the processing

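Nid1, Lama2, Lama4 and Lama5 kept their direction and call in all 20 alternatives, Hspg2 in 18, Lamc1 in 16 and Lamb2 in 8, and Nid2 and Lamb1 were never called. Of the 9 genes, 5 were lowered and 2 raised; with log2(FPKM + 1) or log2(FPKM + 0.1) 3 were lowered, and with a threshold of 0.01 or the replicate block 1 was raised. The fits without 1 library gave 4 to 5 lowered and 1 to 2 raised. Under the replicate block, which pairs libraries only by number, Lamb2 (adjusted p = 0.0951) and Lamc1 (0.0687) lost their calls, Dag1 (0.122) did too, and 1894 genes were raised and 1863 lowered over all genes, against 2338 and 2292 without it; Lamb2 and Lamc1 were called with gene length correction and block together. Over all genes, a threshold of 0.01 left 1428 raised and 1424 lowered, limma on log2(FPKM + 1) restricted to genes with at least 1 FPKM in 3 libraries, which changes values, test and filter together, gave 2687 raised and 1424 lowered (2829 and 1546 without that filter), library totals 3174 and 1673, and the fits without 1 library 1675 to 2243 raised and 1694 to 2143 lowered.

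Counts without length scaling moved the difference in share of Lama2 to -0.957, Lama4 to -6.13, Lama5 to 7.19 and Nid2 to 7.69 percentage points, by construction, since chains differ in length. Leaving out 1 library these ran from -0.393 to -0.238, from -4.71 to -4.49, from 4.90 to 5.10 and from 8.22 to 9.57, and for Lamb1 from 0.634 to 0.933, Lamb2 from -1.06 to -0.701 and Lamc1 from -0.165 to -0.0893; the log2 ratio differences ran from -1.11 to -0.99 for Nid1 to Nid2 and from -0.06 to -0.04 for Lama4 to Lama2.

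List counts moved by over 1.5 times as follows. Other laminin chains: none raised with the DESeq2 Wald test or a threshold of 0.01, 1 lowered with either of these or with log2(FPKM + 0.1), none lowered (0) with at least 1 CPM or with log2(FPKM + 1), filtered at 1 FPKM or not, and 0 to 1 raised and 1 to 2 lowered without 1 library; Lama1 and Lama3 were not tested with at least 1 CPM or 1 FPKM. Receptors: 4 lowered with a threshold of 0.01, library totals or any FPKM fit, and 4 to 7 without 1 library. Dystroglycan glycosylation: 2 lowered under those same settings, 1 raised with DESeq2 or a threshold of 0.01, and 2 to 6 lowered and 1 to 2 raised without 1 library. Heparan sulfate enzymes: 3 raised with DESeq2, 2 with a threshold of 0.01 or the replicate block with or without gene length correction, 4 lowered with log2(FPKM + 1) or log2(FPKM + 0.1), and 2 to 5 raised and 5 to 7 lowered without 1 library. Proteases: 5 raised with library totals or filtered log2(FPKM + 1) (4 unfiltered), 7 lowered with gene length correction, and 2 to 4 raised and 3 to 7 lowered without 1 library. Basement membrane partners stayed at 8 to 12 lowered and 3 to 4 raised in all. Where not stated, the cause was not tested. Exact tests of 3 against 3 cannot go below 0.1 and say nothing about stability. Transcript isoforms, protein and secreted matrix were not analysed here.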
